A study of Homo sapiens with 16 samples.

Results

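The comparison described here set 2 monocytic lines with an MLL-AF9 fusion, MOLM13 and THP1, against 2 B-precursor lines with other MLL fusions, RS4-11 (MLL-AF4) and KOPN8 (MLL-ENL). All are established human leukemia lines, and the labels give the fusion of each line. The words monocytic and B-precursor come from general knowledge of these lines and are checked against marker genes here. Members were chosen by line, which gave 8 of the 16 libraries of the series, 4 in each group. The series profiled poly(A) RNA of 8 blood cancer lines, each treated with the Y518R peptide, which binds DPY30, and with the 3R peptide, which does not. DPY30 is a core subunit of the SET1/MLL complexes that methylate histone H3 at lysine 4. Each of the 4 compared lines therefore has 1 library of cells given Y518R and 1 of cells given 3R, and no library of untreated cells was analysed here. The question is baseline expression of the 2 kinds of leukemia with the peptides pooled, not the peptide effect. The labels state neither the dose of a peptide nor the time of treatment. Because each kind of leukemia carries its own fusion partners, lineage and fusion partner cannot be told apart, and 2 lines a side carry all of the replication.

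In these leukemias the N-terminal part of MLL (KMT2A), a histone methyltransferase, is joined to a partner protein that brings transcription elongation factors to its target genes, with the HOXA genes and MEIS1 as the best known targets. Monocytic cells are built by the transcription factors PU.1, the C/EBP family and IRF8, which switch on growth factor receptors, granule proteases and lysosomal enzymes. B-cell precursors depend on E2A, EBF1 and PAX5, which switch on the pre-B cell receptor (the surrogate light chains VPREB1 and IGLL1 with the signalling chains CD79A and CD79B) and the RAG recombinase.

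The 8 libraries held 23206779 to 43003124 gene counts, and 3 counts, the limit that a count of 0 allows, correspond to 0.0697 to 0.141 CPM by library. CPM, a count scaled to the size of its library, is here scaled by TMM and given with the Y518R library before the 3R library of each line. Libraries of 1 line resembled each other most, with Spearman correlations of 0.987 to 0.996 across 15444 genes, against 0.861 to 0.891 between the lines of 1 group and 0.775 to 0.818 between groups. The correlations are across genes, which are not independent replicates. Differences are log2 changes of MOLM13 and THP1 over RS4-11 and KOPN8 from edgeR's quasi-likelihood test on line sums, where the 2 libraries of a line were added and the line is the replicate. A gene was called at a Benjamini-Hochberg adjusted p under 0.05. Calls by limma-voom on the 8 libraries, with the line as a random block, are given beside them. The p-values of that fit may be too small, because its residual degrees of freedom still count libraries. Each log2 change and its error is from edgeR, also where a random-block adjusted p stands beside it. A gene printed with a random-block adjusted p alone was not called by edgeR.

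As sums the marker genes followed the lineage names, but not every monocyte marker did so singly. Of the 7 monocyte markers, 5 reached 10 CPM in all 4 MLL-AF9 libraries, while CD14 and MPO did not. CSF1R in RS4-11 nearly reached its level in MOLM13. Summed over the 7 monocyte markers, the MLL-AF9 libraries held 715 to 1015 CPM, against 17.8 to 50.2 CPM in the MLL-AF4 and MLL-ENL libraries. Summed over the 7 B lineage markers, the MLL-AF9 libraries held 11.0 to 17.9 CPM, against 1618 to 2511 CPM in the MLL-AF4 and MLL-ENL libraries. LYZ, the secreted lysozyme of phagocytes, had 583 and 543 CPM in MOLM13 and 519 and 746 in THP1, against 10.7 and 8.0 in RS4-11 and 0.658 and 1.28 in KOPN8. For LYZ, which made up most of the monocyte sum, all 4 MLL-AF9 libraries lay far above the others, and RS4-11 lay above KOPN8. CD79A, the immunoglobulin alpha chain of the B cell receptor, had 1.46 and 1.05 CPM in MOLM13 and 1.1 and 1.09 in THP1, against 464 and 434 in RS4-11 and 567 and 510.4 in KOPN8, so its 4 values in MLL-AF9 libraries were all close to 1 CPM. CD14, the lipopolysaccharide co-receptor that defines mature monocytes, had only 1.93 and 1.52 CPM in MOLM13 and 17.4 and 4.26 in THP1, against 0.275 and 1.07 in RS4-11 and 0.46 and 0.0412 in KOPN8. The groups did not overlap for CD14, but its level was low in 3 of the 4 monocytic libraries and its difference did not pass the test (log2 3.63 ± 1.39, edgeR adjusted p = 0.363).

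**Figure D1:**
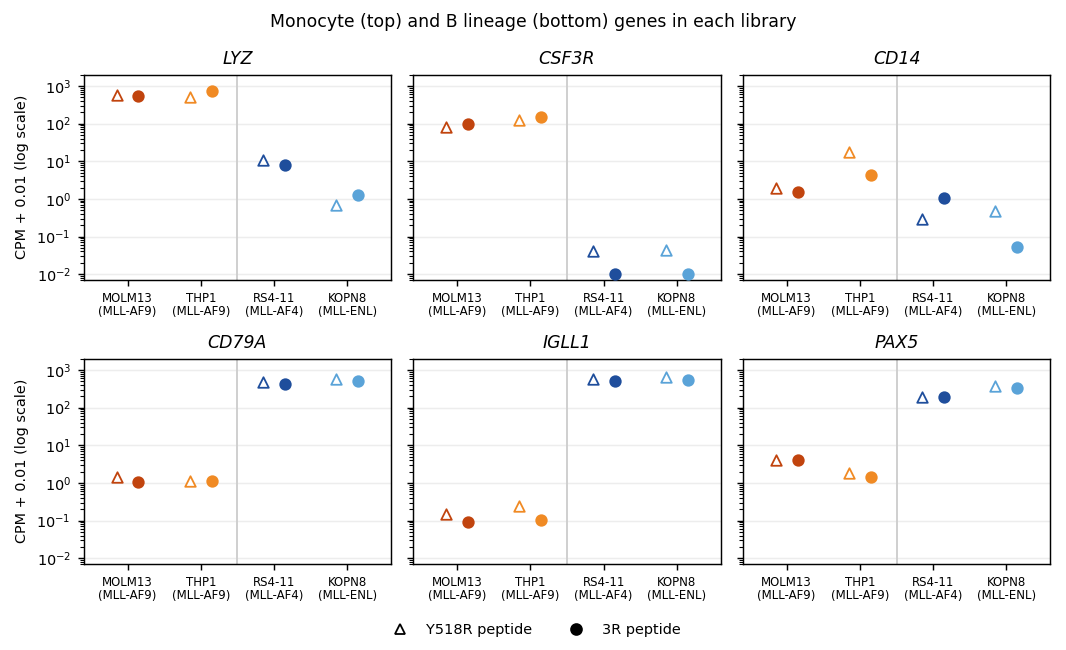
CPM on a log axis (0.01 added so that 0 can be drawn) of 6 lineage genes in each of the 8 libraries, by line, with open triangles for Y518R and filled circles for 3R. LYZ and CSF3R sit high in MOLM13 and THP1, CD79A, IGLL1 and PAX5 sit high in RS4-11 and KOPN8, and CD14 reaches at most 17.4 CPM.

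Across 14660 genes tested, 18 were called higher in the MLL-AF9 lines (0.123%) and 9 lower (0.0614%). The adjusted p-values of these 27 genes lay between 0.0487 and 0.0497, just under the threshold, and 2114 genes had an unadjusted p under 0.05 (1282 higher and 832 lower). Fold changes themselves were wide: 3170 genes were at least 2-fold higher and 2227 at least 2-fold lower in the fit, around a median log2 change of 0.05 over all genes. All 4 MLL-AF9 libraries lay above all 4 others for 2633 genes (18.0%) and below them for 2413 (16.5%). The random-block fit of 14168 genes called 115 higher (0.812%) and 111 lower (0.783%), among them 16 of the 27. The 11 calls that it lost were CEBPD, CFD, RNASE2, CES1, LAPTM4B, MGST1, SLC22A15, LPHN3 and ONECUT2 on the higher side and CHST15 and RLTPR on the lower side. No gene was called by edgeR when any 1 of the 4 lines was left out (lowest adjusted p 0.0757 to 0.208, and 1510 to 2097 genes at an unadjusted p under 0.05), while all 27 kept their direction each time. All tests are on bulk RNA, in which fewer cells of a type and less RNA per cell cannot be told apart.

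Of the 17 genes called higher in MOLM13 and THP1 and described here, 5 are members of a list, namely CSF3R, CD4, CEBPD, CFD and RNASE2, and CD4 is in the T cell list. CSF3R, the receptor for granulocyte colony-stimulating factor, had 81.8 and 95.9 CPM in MOLM13 and 121 and 148 in THP1, against 0.0305 and 0 in RS4-11 and 0.0329 and 0 in KOPN8. RS4-11 and KOPN8 together held 2 counts of CSF3R against 12511 in the MLL-AF9 lines, a depth-adjusted ratio of 7558 (95% counting interval 2092 to 62416), and its adjusted p was 0.0487 by edgeR and 0.0398 in the random-block fit. CD4, a T cell co-receptor that monocytes also carry, had 263 and 209.9 CPM in MOLM13 and 227 and 205 in THP1, against 0.0611 and 0.0697 in RS4-11 and 0.0986 and 0.0412 in KOPN8, and was the gene of this group with nearly the same level in all 4 MLL-AF9 libraries (log2 11.65 ± 0.44, edgeR adjusted p = 0.0487, random-block adjusted p = 0.0202). CEBPD, a C/EBP family factor, had 54 and 45.1 CPM in MOLM13 and 59 and 99 in THP1, against 0.122 and 0.0697 in RS4-11 and 0 and 0.165 in KOPN8 (log2 9.58 ± 0.65, edgeR adjusted p = 0.0487, random-block adjusted p = 0.174). The low group held at most 0.165 CPM of CEBPD in any library, near the limit of detection, and the random-block fit did not call it.

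CFD, RNASE2 and CES1 were called by edgeR but not by the random-block fit. CFD, the complement protease factor D, had 421 and 276 CPM in MOLM13 and 352 and 446 in THP1, against 0.275 and 0.256 in RS4-11 and 0.197 and 0.0412 in KOPN8 (log2 10.88 ± 0.63, edgeR adjusted p = 0.0487, random-block adjusted p = 0.0688). RNASE2, the eosinophil-derived neurotoxin of granules, had 249 and 211 CPM in MOLM13 and 284 and 641 in THP1, against 0.0611 and 0.116 in RS4-11 and 0.197 and 0.124 in KOPN8 (log2 11.42 ± 0.76, edgeR adjusted p = 0.0487, random-block adjusted p = 0.158). The THP1 3R library stood well above the other 3 for RNASE2, and reads that also fit its related neighbour RNASE3 may make its count uncertain. CES1, a carboxylesterase known in monocytes and liver, had 274 and 253 CPM in MOLM13 and 190.0 and 322 in THP1, against 0.183 and 0.0465 in RS4-11 and 0.0329 and 0.0825 in KOPN8 (log2 11.62 ± 0.57, edgeR adjusted p = 0.0487, random-block adjusted p = 0.0728). GAS6, the ligand of the TAM receptor kinases, differed least among the 17 genes called higher and described here and was still present in the low group, with 259.9 and 215 CPM in MOLM13 and 184 and 240.2 in THP1, against 6.44 and 4.86 in RS4-11 and 6.12 and 7.59 in KOPN8 (log2 5.22 ± 0.35, edgeR adjusted p = 0.0487, random-block adjusted p = 0.0211). PECAM1, an adhesion receptor of leukocytes and endothelium, had 103 and 98 CPM in MOLM13 and 162 and 151 in THP1, against 0.885 and 2.02 in RS4-11 and 1.25 and 1.44 in KOPN8 (log2 6.51 ± 0.45, edgeR adjusted p = 0.0497, random-block adjusted p = 0.0308).

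The next 9 genes called higher belong to no list used here. LAPTM4B, a lysosomal membrane protein, ranged over 151 to 308 CPM in MOLM13 and THP1, against 0.0412 to 0.493 CPM in RS4-11 and KOPN8 (log2 9.80 ± 0.66). MGST1, a microsomal glutathione transferase, ranged over 66.4 to 172 CPM in MOLM13 and THP1, against 0.0329 to 0.0825 CPM in RS4-11 and KOPN8 (log2 11.22 ± 0.68). SLC22A15, a solute carrier, ranged over 57.4 to 153 CPM in MOLM13 and THP1, against 0.0305 to 0.0465 CPM in RS4-11 and KOPN8 (log2 11.47 ± 0.67). These 3 were higher in MOLM13 than in THP1. LPHN3, an adhesion G protein-coupled receptor known from neurons, ranged over 71.6 to 144 CPM in MOLM13 and THP1, against 0 to 0.0658 CPM in RS4-11 and KOPN8 (log2 11.62 ± 0.69). NDFIP2, an adaptor of NEDD4 ubiquitin ligases, ranged over 54.6 to 96.2 CPM in MOLM13 and THP1, against 0 to 0.0658 CPM in RS4-11 and KOPN8 (log2 10.96 ± 0.65). PHACTR3, a phosphatase and actin regulator, ranged over 103 to 164 CPM in MOLM13 and THP1, against 0.611 to 1.21 CPM in RS4-11 and KOPN8 (log2 7.16 ± 0.42). ONECUT2, a homeodomain factor known from liver and neurons, ranged over 36.1 to 71.3 CPM in MOLM13 and THP1, against 0 to 0.0986 CPM in RS4-11 and KOPN8 (log2 10.14 ± 0.62), with the THP1 Y518R library the low one of the 4. HNMT, the enzyme that methylates histamine, had 5219 counts in the MLL-AF9 lines against 2 in RS4-11 and KOPN8, a depth-adjusted ratio of 3153 (95% counting interval 872 to 26041). RPP25, a subunit of RNase P, had 5416 counts in the MLL-AF9 lines against 3 in RS4-11 and KOPN8, a ratio of 2181 (746 to 10580). Each of these 9 genes had an edgeR adjusted p of 0.0487. The random-block fit called NDFIP2, PHACTR3, HNMT and RPP25 (adjusted p = 0.046, 0.0363, 0.0309 and 0.0398). It did not call LAPTM4B, MGST1, SLC22A15, LPHN3 and ONECUT2 (adjusted p = 0.0692, 0.0732, 0.0611, 0.0522 and 0.145). The remaining called gene lies on the Y chromosome and is not described.

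Of the 9 genes called lower in MOLM13 and THP1, 4 are in the pre-B cell receptor list and 2 in that of B lineage factors. IGLL1, the lambda5 surrogate light chain, had 0.141 and 0.0842 CPM in MOLM13 and 0.227 and 0.0934 in THP1, against 564 and 516 in RS4-11 and 653 and 532 in KOPN8 (log2 -11.98 ± 0.51, edgeR adjusted p = 0.0487, random-block adjusted p = 0.0169). VPREB1, its partner in the surrogate light chain, had 0.235 and 0.379 CPM in MOLM13 and 0.292 and 0.187 in THP1, against 239.6 and 249.8 in RS4-11 and 522 and 438 in KOPN8 (log2 -10.34 ± 0.67, edgeR adjusted p = 0.0487, random-block adjusted p = 0.0289). Together with CD79A (log2 -8.69 ± 0.43, edgeR adjusted p = 0.0487, random-block adjusted p = 0.0109), these are 3 of the 4 chains that the pre-B receptor adds to the mu heavy chain. RS4-11 and KOPN8 had similar levels of IGLL1 and CD79A, and VPREB1 was higher in KOPN8. CD72, an inhibitory co-receptor of B cells, had 0.471 and 1.18 CPM in MOLM13 and 0.778 and 0.809 in THP1, against 304 and 304 in RS4-11 and 183 and 172 in KOPN8 (log2 -8.17 ± 0.52, edgeR adjusted p = 0.0487, random-block adjusted p = 0.0259).

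EBF1, which specifies the B lineage, had 3.25 and 6.95 CPM in MOLM13 and 9.15 and 4.7 in THP1, against 210.4 and 207 in RS4-11 and 208 and 210.3 in KOPN8 (log2 -5.09 ± 0.35, edgeR adjusted p = 0.0487, random-block adjusted p = 0.0367). Its level in RS4-11 and KOPN8 spanned only 207 to 210.4 CPM, and it was not at the detection limit in the MLL-AF9 libraries. IRF4, a factor of pre-B and plasma cells, had 0.471 and 0.674 CPM in MOLM13 and 0.357 and 0.84 in THP1, against 122 and 124 in RS4-11 and 167 and 153 in KOPN8 (log2 -7.88 ± 0.42, edgeR adjusted p = 0.0487, random-block adjusted p = 0.0283). MZB1, an endoplasmic reticulum protein that helps assemble immunoglobulin, had 0.283 and 0.547 CPM in MOLM13 and 0.486 and 0.156 in THP1, against 122 and 123 in RS4-11 and 85 and 73.9 in KOPN8 (log2 -8.07 ± 0.55, edgeR adjusted p = 0.0487, random-block adjusted p = 0.0452). CHST15, a sulfotransferase of chondroitin sulfate, had 0.235 and 0.337 CPM in MOLM13 and 0.486 and 0.0622 in THP1, against 133 and 145 in RS4-11 and 259.9 and 272 in KOPN8 (log2 -9.46 ± 0.60, edgeR adjusted p = 0.0487, random-block adjusted p = 0.0582). RLTPR, an actin-capping regulator that serves T cell co-stimulation, had 1.18 and 0.80 CPM in MOLM13 and 0.389 and 1.62 in THP1, against 88.4 and 98.6 in RS4-11 and 132 and 127 in KOPN8 (log2 -6.78 ± 0.43, edgeR adjusted p = 0.0487, random-block adjusted p = 0.0522).

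**Figure D2:**
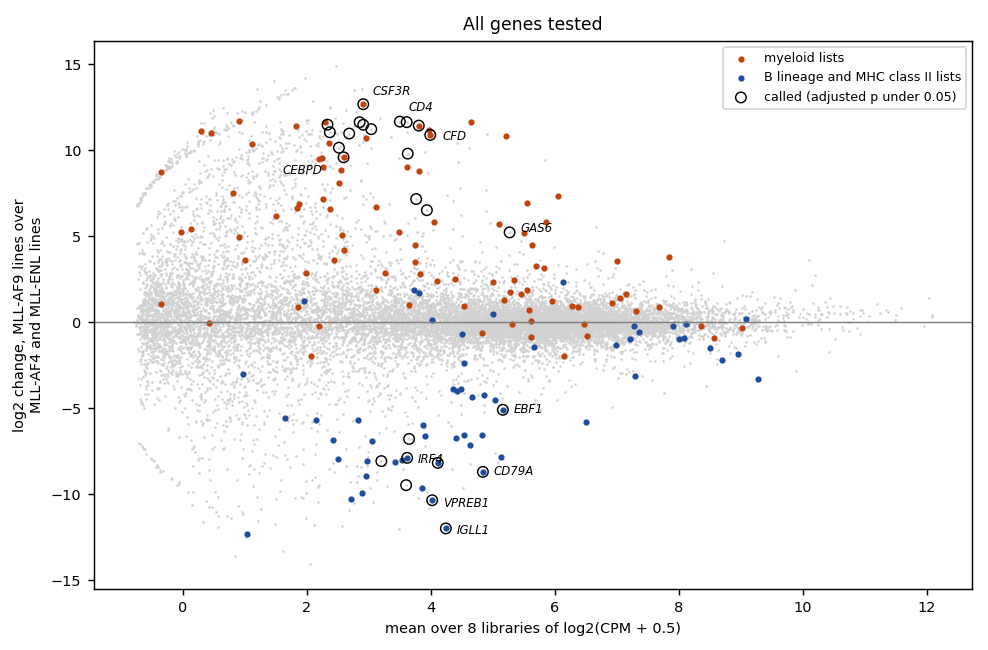
Log2 change of MOLM13 and THP1 over RS4-11 and KOPN8 (vertical axis, log2 units) against the mean log2(CPM + 0.5) over the 8 libraries for all 14660 genes tested, with myeloid list genes in orange, B lineage and MHC class II list genes in blue and 26 of the 27 called genes circled (the Y-linked gene is not marked). The circled genes have log2 changes beyond 5 in either direction. Genes that were not called lie further out on both sides, with AGT at 13.51 and the lowest log2 change at -14.02.

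The promoters of 5 called genes are shown because the factors named above bind known short motifs and each of these 5 holds such a motif. Promoters were taken from RefSeq (GRCh38.p14) and searched on both strands from 250 bases before to 50 after the gene start. The letters searched were CAGGTG for the E-box of E2A proteins, TTGCNNAA for C/EBP, TCCCNNGGG for EBF1 and GAGGAAGT for PU.1, none of which is contained in another. In the lines below the 250 bases before the start are printed 5′ to 3′ on the gene's strand, and capitals mark the motif.
CD79A: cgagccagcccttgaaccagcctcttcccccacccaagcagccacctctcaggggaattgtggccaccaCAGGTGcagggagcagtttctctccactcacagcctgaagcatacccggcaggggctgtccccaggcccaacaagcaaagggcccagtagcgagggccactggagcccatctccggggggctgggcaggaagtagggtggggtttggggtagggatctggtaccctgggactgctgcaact
IGLL1: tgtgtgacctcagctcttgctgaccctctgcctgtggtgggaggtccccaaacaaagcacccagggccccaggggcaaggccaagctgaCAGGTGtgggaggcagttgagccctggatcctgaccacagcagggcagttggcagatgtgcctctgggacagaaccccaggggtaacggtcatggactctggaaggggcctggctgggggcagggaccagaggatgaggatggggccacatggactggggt
VPREB1: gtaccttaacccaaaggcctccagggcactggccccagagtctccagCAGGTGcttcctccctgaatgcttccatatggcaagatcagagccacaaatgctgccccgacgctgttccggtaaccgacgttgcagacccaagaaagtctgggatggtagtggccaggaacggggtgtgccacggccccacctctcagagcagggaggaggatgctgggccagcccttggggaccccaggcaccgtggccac
CSF3R: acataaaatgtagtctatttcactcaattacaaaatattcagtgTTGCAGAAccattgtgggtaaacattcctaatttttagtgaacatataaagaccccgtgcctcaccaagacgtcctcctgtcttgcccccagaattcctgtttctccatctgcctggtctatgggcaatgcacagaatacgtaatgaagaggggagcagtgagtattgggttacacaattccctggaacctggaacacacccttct
RNASE2: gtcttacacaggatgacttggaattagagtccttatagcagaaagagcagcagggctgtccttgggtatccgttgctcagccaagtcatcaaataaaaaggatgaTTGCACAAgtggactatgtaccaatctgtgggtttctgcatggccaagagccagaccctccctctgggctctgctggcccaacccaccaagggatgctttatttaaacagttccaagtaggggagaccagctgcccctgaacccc
The first 3 are genes lower in the MLL-AF9 lines and carry the E-box, 181 bases before the start in CD79A (chr19:41877029-41877278, plus strand), 161 in IGLL1 (chr22:23580291-23580540, minus strand) and 203 in VPREB1 (chr22:22244536-22244785, plus strand). The last 2 are genes higher in the MLL-AF9 lines and carry the C/EBP letters, 206 bases before the start in CSF3R (chr1:36483315-36483564, minus strand) and 145 in RNASE2 (chr14:20955237-20955486, plus strand).

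Across all 35116 promoters in the table, 20.59% held the E-box, 10.46% the C/EBP letters, 8.865% the EBF1 letters and 2.589% the PU.1 letters. Of the 9 genes called lower, 8 had a promoter in the table, and 4 of the 8 promoters held the E-box (CD79A, IGLL1, MZB1 and VPREB1), 1 the C/EBP letters (MZB1) and 0 the other motifs. Of the 17 genes called higher and searched, 11 had 15 promoters between them. Of these 15, 4 held the C/EBP letters (CSF3R, HNMT, LPHN3 and RNASE2), 5 the E-box (in GAS6, MGST1, NDFIP2 and RPP25), 1 the PU.1 letters (NDFIP2) and 0 the EBF1 letters. So the E-box occurred in genes of both directions. A match is a description of the letters and no evidence of binding.

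Among 18 myeloid transcription factors, 17 were in the fit, 1 (CEBPD) was called higher and 0 lower, and all 4 MLL-AF9 libraries lay above the rest for 12, a position held by 18.0% of all genes tested. The random-block fit did not call CEBPD and called CEBPA and IRF8. The list had a median log2 change of 2.85 (2.33 to 3.26 as each line was left out), against 0.05 over all genes. CEBPA, the factor that commits progenitors to the myeloid lineage, had 948 and 756 CPM in MOLM13 and 573 and 548 in THP1, against 24 and 25.3 in RS4-11 and 0.526 and 0.371 in KOPN8. It was not called by edgeR (log2 5.83 ± 2.01, adjusted p = 0.32) but was called higher in the random-block fit (adjusted p = 0.0296), and RS4-11 kept a level that KOPN8 lacked. IRF8, which directs progenitors to monocytes, had 477 and 314 CPM in MOLM13 and 525 and 520.3 in THP1, against 25.9 and 23.3 in RS4-11 and 56.8 and 50.9 in KOPN8. It was likewise called by the random-block fit but not by edgeR (edgeR log2 3.57 ± 0.55, edgeR adjusted p = 0.143, random-block adjusted p = 0.0202). SPI1 (PU.1), which both myeloid cells and B precursors need, had 206 and 193 CPM in MOLM13 and 265 and 336 in THP1, against 84.8 and 84.2 in RS4-11 and 81.2 and 76.6 in KOPN8. It was present in every library and passed neither test (log2 1.64 ± 0.34, adjusted p = 0.19 and 0.0722). KLF4, a monocyte differentiation factor, had 29.1 and 37.1 CPM in MOLM13 and 38.8 and 31.3 in THP1, against 0.488 and 0.837 in RS4-11 and 0.0329 and 0.0412 in KOPN8 (log2 6.56 ± 1.63, adjusted p = 0.225). TFEC, a macrophage factor of the MITF family, had 34.2 and 38.5 CPM in MOLM13 and 59.6 and 111 in THP1, against 0.153 and 0.0697 in RS4-11 and 0.263 and 0.0412 in KOPN8 (log2 8.83 ± 0.83, adjusted p = 0.068). HHEX ran the other way in part, with 82.5 and 96.9 CPM in MOLM13 and 7.1 and 10.7 in THP1, against 48.7 and 46.6 in RS4-11 and 134 and 149 in KOPN8.

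Of 35 monocyte surface receptors, 32 were in the fit, and 21 had all 4 MLL-AF9 libraries above the others (all genes: 18.0%). CSF3R was the 1 called higher and 0 were called lower. Over the list the median log2 change was 5.02 (4.03 to 6.62 as each line was left out). The random-block fit called CSF3R and ITGAX. ITGAX, the integrin alpha X of phagocytes, had 56.4 and 72.6 CPM in MOLM13 and 60.2 and 64 in THP1, against 0.855 and 1.07 in RS4-11 and 3.52 and 6.72 in KOPN8 (log2 4.46 ± 0.97, edgeR adjusted p = 0.197, random-block adjusted p = 0.0307). CSF1R, the receptor of macrophage colony-stimulating factor, had 22.9 and 24.2 CPM in MOLM13 and 155 and 90 in THP1, against 22.6 and 20.1 in RS4-11 and 0.0658 and 0.247 in KOPN8, so that RS4-11 nearly reached MOLM13 while KOPN8 held at most 0.247 CPM. IL6R, the interleukin 6 receptor, had 128 and 118 CPM in MOLM13 and 990.5 and 702 in THP1, against 16.9 and 19.5 in RS4-11 and 0.197 and 0.206 in KOPN8. CCR2, the chemokine receptor of classical monocytes, had 10.6 and 12.5 CPM in MOLM13 and 194 and 159 in THP1, against 0.183 and 0.0232 in RS4-11 and 0 and 0.0825 in KOPN8. TLR2, a sensor of bacterial lipoproteins, had 16.1 and 19.6 CPM in MOLM13 and 81.7 and 82.5 in THP1, against 0.214 and 0.163 in RS4-11 and 0 and 0 in KOPN8. Both were higher in THP1 than in MOLM13. CLEC7A, the beta-glucan receptor, had 0 counts in RS4-11 and KOPN8 and 1.81 to 10.5 CPM in the MLL-AF9 libraries, at least 195-fold higher against a floor of 3 counts over the group. ANPEP (CD13) had 0.0942 and 0.0842 CPM in MOLM13 and 391 and 453 in THP1, against 2.84 and 2.77 in RS4-11 and 0.0658 and 0.247 in KOPN8, high in THP1 only. LILRB1 had 4.85 and 3.16 CPM in MOLM13 and 5.19 and 1.15 in THP1, against 24.8 and 30.4 in RS4-11 and 0.132 and 0.577 in KOPN8, with its high values in RS4-11. CSF2RA and IL3RA had 0 counts in all 16 libraries, which is not read as absence because both lie in the region that the X and Y chromosomes share, where a read has 2 possible places.

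Granule and secreted proteins formed the list with the largest median of the 22. Of its 22 genes 20 were in the fit, and 18 had all 4 MLL-AF9 libraries above the rest (all genes: 18.0%). CFD and RNASE2 were called higher and 0 were called lower. The random-block fit lost both calls and made 3 others, CST3, ANXA1 and LYZ. Its median log2 change was 8.92, or 8.12 with genes at 0 counts set to their bound (8.03 to 10.64 as each line was left out). ELANE, neutrophil elastase, had 597 and 379.5 CPM in MOLM13 and 1013 and 1738 in THP1, against 0.214 and 0.395 in RS4-11 and 0.132 and 0.454 in KOPN8 (log2 11.63 ± 0.93, edgeR adjusted p = 0.0622). AZU1, azurocidin, had 861 and 644 CPM in MOLM13 and 1229 and 2471 in THP1, against 0.58 and 0.814 in RS4-11 and 0.493 and 1.07 in KOPN8 (log2 10.82 ± 0.83, adjusted p = 0.0619). CTSG, cathepsin G, had 779.8 and 649 CPM in MOLM13 and 622 and 2975 in THP1, against 18.1 and 13.3 in RS4-11 and 0.888 and 0.577 in KOPN8. PRTN3, proteinase 3, had 165 and 137 CPM in MOLM13 and 427 and 1365 in THP1, against 0.244 and 0.279 in RS4-11 and 0.296 and 0.0825 in KOPN8. For all of these 4 azurophil granule proteins the THP1 3R library was the high one. MPO, the myeloperoxidase of the same granules, had 9.28 and 23.9 CPM in MOLM13 and 5.68 and 13.6 in THP1, against 0.488 and 0.256 in RS4-11 and 0.0329 and 0 in KOPN8. CST3, the protease inhibitor cystatin C, had 127 and 106 CPM in MOLM13 and 385 and 369.9 in THP1, against 10.7 and 10.9 in RS4-11 and 11.9 and 11 in KOPN8 (log2 4.48 ± 0.71, random-block adjusted p = 0.0261). ANXA1, annexin A1, had 135 and 99.2 CPM in MOLM13 and 396 and 309 in THP1, against 0.916 and 0.721 in RS4-11 and 0.263 and 0.206 in KOPN8 (log2 8.80 ± 1.13, random-block adjusted p = 0.0416). LYZ was the third call of that fit (edgeR log2 6.91 ± 1.38, random-block adjusted p = 0.0211), and edgeR called none of these 3. S100A8 and S100A9, the calprotectin subunits, reached 18.8 to 37.4 and 20.2 to 94.3 CPM in the MLL-AF9 libraries, with 1 count of S100A8 and 2 of S100A9 in RS4-11 and KOPN8 together. Reads that also fit related S100A genes may make these counts uncertain. SERPINB1 and GRN overlapped between the groups, and among the compared lines RETN was counted only in RS4-11, at 3.30 and 3.09 CPM.

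Signalling, oxidase and lysosome genes differed less. Of 20 myeloid adaptors and kinases, 0 were called in either direction. All 4 MLL-AF9 libraries lay above the rest for 12 and below for 2 (all genes: 18.0% and 16.5%). The median log2 change was 1.01 (0.76 to 1.29 as each line was left out). TYROBP, the DAP12 adaptor, had 67.6 and 62.8 CPM in MOLM13 and 182 and 158 in THP1, against 0 and 0.116 in RS4-11 and 0 and 0.165 in KOPN8 (log2 10.70 ± 0.83, adjusted p = 0.0622). PLEK, the protein kinase C substrate pleckstrin, had 347 and 442 CPM in MOLM13 and 344 and 391 in THP1, against 24.7 and 16.8 in RS4-11 and 1.05 and 0.783 in KOPN8. It was called by the random-block fit but not by edgeR (edgeR log2 5.20 ± 1.60, random-block adjusted p = 0.0261). PIK3CG, the gamma catalytic subunit of PI3-kinase, and LAT2, an adaptor of B and mast cells, were the 2 with all MLL-AF9 libraries below the rest. PIK3CG ranged over 28.2 to 43.9 CPM in MOLM13 and THP1, against 101 to 192 CPM in RS4-11 and KOPN8. IRAK3, an inhibitor of Toll-like receptor signalling, had 143 and 185 CPM in MOLM13 and 160.0 and 183 in THP1, against 70.9 and 65.9 in RS4-11 and 0.0658 and 0.0412 in KOPN8, near 0 in KOPN8 only. Of the 6 genes of the phagocyte NADPH oxidase, 0 were called and 3 had all MLL-AF9 libraries above the others (all genes: 18.0%). The oxidase list had a median log2 change of 0.93 (0.85 to 1.02 as each line was left out). CYBB, its catalytic subunit, had 2.07 and 2.95 CPM in MOLM13 and 90.9 and 22.8 in THP1, against 0.0916 and 0.0465 in RS4-11 and 0.0658 and 0.0825 in KOPN8, while NCF4 overlapped at 153 to 231 CPM in MOLM13 and THP1, against 154 to 221 CPM in RS4-11 and KOPN8. NCF1 has near-identical pseudogenes and its counts are uncertain.

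Of 24 lysosomal genes, 0 were called, 9 had all 4 MLL-AF9 libraries above the others and 0 below, where 18.0% of all genes tested lay above and 16.5% below. The median log2 change of 1.12 dropped to 0.26 without THP1 and was 1.53 without MOLM13. CD68, the lysosomal glycoprotein of macrophages, had 129 and 88.7 CPM in MOLM13 and 458 and 415 in THP1, against 3.27 and 2.77 in RS4-11 and 7.76 and 8.87 in KOPN8 (log2 5.62 ± 1.04, random-block adjusted p = 0.0431). CTSZ, cathepsin Z, had 228 and 213 CPM in MOLM13 and 469 and 345 in THP1, against 38.9 and 32.7 in RS4-11 and 66.8 and 66.2 in KOPN8 (log2 2.64 ± 0.53, random-block adjusted p = 0.0296). CTSL1, cathepsin L, had 17.1 and 9.68 CPM in MOLM13 and 127 and 106 in THP1, against 0.0611 and 0.116 in RS4-11 and 0.0658 and 0 in KOPN8. Housekeeping lysosomal hydrolases such as HEXA (41.8 to 115 CPM in MOLM13 and THP1, against 58.8 to 105 CPM in RS4-11 and KOPN8) overlapped. Of 5 leukotriene synthesis genes 0 were called and 3 had all MLL-AF9 libraries above the rest (all genes: 18.0%). Their median log2 change of 2.14 lay at 1.13 without KOPN8 and at 5.37 without RS4-11. ALOX5, the 5-lipoxygenase, had 3.01 and 2.99 CPM in MOLM13 and 38.3 and 10.5 in THP1, against 0.183 and 0.0697 in RS4-11 and 0 and 0.0825 in KOPN8.

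Of 18 inflammatory cytokines and chemokines, 15 were in the fit and 0 were called. The MLL-AF9 libraries all lay above the rest for 8 and below for 0 (all genes: 18.0% and 16.5%). The median log2 change was 1.56 (1.77 without MOLM13 to 5.11 without RS4-11). Each fit without a line filtered genes anew, so its list genes can differ, and 1.56 lies outside that range. CCL5, a T cell and monocyte attractant, had 179 and 174 CPM in MOLM13 and 129.5 and 116 in THP1, against 47.9 and 40.8 in RS4-11 and 4.11 and 4.82 in KOPN8. IL8, the neutrophil chemokine, had 3.34 and 7.79 CPM in MOLM13 and 3.15 and 2.77 in THP1, against 0 and 0.0232 in RS4-11 and 0 and 0 in KOPN8, which is 1 count in the low group. CXCL10 had 0 counts in RS4-11 and KOPN8 and 1.6 to 3.41 CPM in the MLL-AF9 libraries, at least 97.1-fold higher. IL1B went against the list, with 3.91 and 3.12 CPM in MOLM13 and 1.98 and 0.871 in THP1, against 46.1 and 52.4 in RS4-11 and 0.789 and 0.66 in KOPN8, and its high libraries were those of RS4-11. IL6, IL10 and CXCL3 did not pass the filter.

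**Figure D3:**
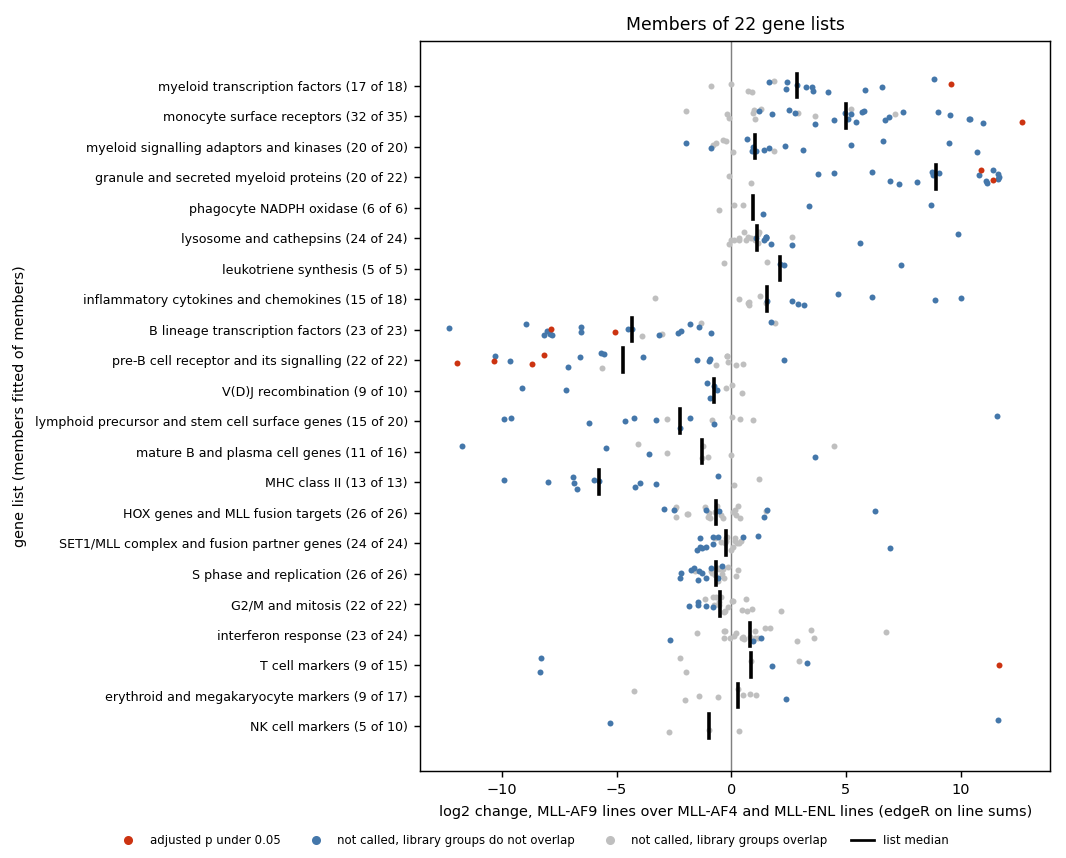
Log2 change of MOLM13 and THP1 over RS4-11 and KOPN8 (horizontal axis, log2 units) for every gene in the fit of the 22 lists, 1 row a list, with red points for edgeR adjusted p under 0.05, blue for libraries of the groups that do not overlap, grey for overlap and a black bar at the list median. Myeloid lists sit to the right (granule median 8.92), B lineage, pre-B receptor and MHC class II lists to the left (median -5.77 for class II), and cell cycle, HOX and SET1/MLL lists near 0.

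The B lineage program formed the opposite side. All 23 B lineage transcription factors were in the fit, and 18 had all 4 MLL-AF9 libraries below the rest (all genes: 16.5%). EBF1 and IRF4 were called lower in the MLL-AF9 lines and 0 were called higher. The median over the list was a log2 change of -4.35 (-4.66 to -3.46 as each line was left out), and the random-block fit called 7 lower. PAX5, which maintains B cell identity, had 4.05 and 4.0 CPM in MOLM13 and 1.85 and 1.4 in THP1, against 194 and 192 in RS4-11 and 373 and 336 in KOPN8 (log2 -6.57 ± 0.77, edgeR adjusted p = 0.10, random-block adjusted p = 0.0169). LEF1, a WNT pathway factor of lymphoid precursors, had 0.80 and 0.253 CPM in MOLM13 and 4.7 and 4.14 in THP1, against 615 and 599.9 in RS4-11 and 528 and 517.6 in KOPN8 (log2 -7.82 ± 1.33, random-block adjusted p = 0.0204). ARID5B, a chromatin regulator, had 5.09 and 9.01 CPM in MOLM13 and 6.39 and 6.01 in THP1, against 146 and 143 in RS4-11 and 164 and 160.3 in KOPN8 (log2 -4.49 ± 0.34, edgeR adjusted p = 0.0591, random-block adjusted p = 0.0204). MEF2C and IKZF2 completed the 7 with EBF1 and IRF4, and MEF2C differed by level rather than presence, at 165 to 207 CPM in MOLM13 and THP1, against 809 to 993 CPM in RS4-11 and KOPN8 (log2 -2.21 ± 0.35, random-block adjusted p = 0.0296). TCF3, which encodes E2A, was abundant in both groups, with 317 and 314 CPM in MOLM13 and 194 and 244 in THP1, against 806 and 885 in RS4-11 and 1143 and 995 in KOPN8 (log2 -1.82 ± 0.42, adjusted p = 0.211 and 0.0662). ZNF423, a partner that restrains EBF1, had 0 counts in MOLM13 and THP1 and 3.01 to 18.8 CPM in RS4-11 and KOPN8, at least 427-fold lower.

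Several B lineage factors separated RS4-11 from KOPN8. BACH2, a repressor active in B cells, had 0.283 and 0.0421 CPM in MOLM13 and 0.876 and 0.809 in THP1, against 14.6 and 18.1 in RS4-11 and 259 and 247 in KOPN8. ERG, an ETS factor of stem and precursor cells, had 0.0471 and 0.0421 CPM in MOLM13 and 0.973 and 0.747 in THP1, against 212 and 223 in RS4-11 and 5.13 and 6.6 in KOPN8, the reverse order. TCF4, an E protein, had 5.32 and 7.33 CPM in MOLM13 and 19.4 and 16.6 in THP1, against 5.43 and 4.63 in RS4-11 and 356 and 373 in KOPN8, so that RS4-11 lay at the level of MOLM13. POU2F2 and KLF2 were the 2 factors with a positive log2 change, and POU2F2, which encodes OCT2, had 18.3 and 16.2 CPM in MOLM13 and 38.4 and 26.7 in THP1, against 6.96 and 5.6 in RS4-11 and 8.35 and 10.3 in KOPN8.

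All 22 genes of the pre-B cell receptor and its signalling were in the fit. Of these, 14 had all 4 MLL-AF9 libraries below the rest (all genes: 16.5%). The list held 4 genes called lower (CD79A, VPREB1, IGLL1 and CD72) and 0 called higher. Its median log2 change was -4.71 (-5.42 without RS4-11 to -1.44 without KOPN8). CD79B, the partner chain of CD79A, had 0.612 and 0.505 CPM in MOLM13 and 2.76 and 1.71 in THP1, against 159 and 163 in RS4-11 and 115 and 106 in KOPN8 (log2 -6.59 ± 0.91, random-block adjusted p = 0.0259). CD22, an inhibitory lectin, had 0.424 and 0.21 CPM in MOLM13 and 0.584 and 0.187 in THP1, against 154 and 144 in RS4-11 and 398 and 449 in KOPN8. Signalling proteins downstream of the receptor were mixed. BLK, a Src-family kinase of B cells, had 0 and 0.0842 CPM in MOLM13 and 0.13 and 0.0311 in THP1, against 113 and 114 in RS4-11 and 54.5 and 48.7 in KOPN8 (log2 -10.29 ± 0.84, edgeR adjusted p = 0.0622). BLNK, a B cell adaptor, had 0.659 and 0.842 CPM in MOLM13 and 1.75 and 0.778 in THP1, against 13.6 and 11.3 in RS4-11 and 93.4 and 91.3 in KOPN8, with KOPN8 the higher line. BTK, a kinase that B and myeloid cells share, ranged over 90.6 to 148 CPM in MOLM13 and THP1, against 168 to 264 CPM in RS4-11 and KOPN8, so the groups lay apart by a smaller margin. LYN, the Src-family kinase, had 199.9 to 279 CPM in MOLM13 and THP1, against 185 to 349 CPM in RS4-11 and KOPN8. PLCG2, the phospholipase, had 115 to 177 CPM in MOLM13 and THP1, against 153 to 184 CPM in RS4-11 and KOPN8, and INPP5D, the SHIP phosphatase, overlapped likewise. PRKCB, protein kinase C beta, was the 1 gene with all MLL-AF9 libraries above, at 131 to 250.1 CPM in MOLM13 and THP1, against 9.37 to 68.6 CPM in RS4-11 and KOPN8.

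In V(D)J recombination, 9 of 10 genes were in the fit, 0 were called, and 6 had all MLL-AF9 libraries below the rest (all genes: 16.5%). The list had a median log2 change of -0.77 (-1.08 to -0.63 as each line was left out). RAG2, a subunit of the recombinase, had 0.188 and 0.421 CPM in MOLM13 and 0.0973 and 0.0622 in THP1, against 122 and 120.4 in RS4-11 and 101 and 104 in KOPN8 (log2 -9.14 ± 0.94, edgeR adjusted p = 0.0765, random-block adjusted p = 0.0259). RAG1, the catalytic subunit, had 0.33 and 0.421 CPM in MOLM13 and 0.973 and 0.965 in THP1, against 200 and 191 in RS4-11 and 8.78 and 11.5 in KOPN8, so RS4-11 stood above KOPN8 for RAG1 while RAG2 was at a similar level in the 2 lines. DNTT, the terminal transferase, did not pass the filter and among the compared lines was counted above 1 CPM in RS4-11 only, at 4.27 and 4.35 CPM. The repair genes that all cells use, such as XRCC4 (17.3 to 26.9 CPM in MOLM13 and THP1, against 20.7 to 24.4 CPM in RS4-11 and KOPN8), overlapped.

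MHC class II genes, which B cells express through the coactivator CIITA, were the list with the lowest median. All 13 genes were in the fit, and 11 had all 4 MLL-AF9 libraries below the rest (all genes: 16.5%). By edgeR 0 were called, and the random-block fit called 5 lower. Over the 13 genes the median log2 change was -5.77 (-6.02 to -4.0 as each line was left out). CIITA had 2.4 and 1.64 CPM in MOLM13 and 1.14 and 1.31 in THP1, against 86.1 and 93.7 in RS4-11 and 126 and 112 in KOPN8 (log2 -5.99 ± 0.52, edgeR adjusted p = 0.0622, random-block adjusted p = 0.0244). HLA-DRA, the class II alpha chain, had 9.84 and 6.86 CPM in MOLM13 and 21.1 and 12.7 in THP1, against 570.3 and 563 in RS4-11 and 830.3 and 812 in KOPN8 (log2 -5.77 ± 0.59, edgeR adjusted p = 0.0765, random-block adjusted p = 0.015). CD74, the invariant chain, stayed expressed in monocytic lines, with 181 and 146 CPM in MOLM13 and 273 and 201 in THP1, against 1780.4 and 1883 in RS4-11 and 2174 and 2107 in KOPN8 (log2 -3.29 ± 0.47, random-block adjusted p = 0.0172). HLA-DPA1 and HLA-DPB1 were the other 2 (log2 -6.74 ± 0.86 and -6.88 ± 1.26). HLA-DRB1 did not separate the groups, with 0.518 and 1.14 CPM in MOLM13 and 74.1 and 56.7 in THP1, against 18.1 and 17.3 in RS4-11 and 45.6 and 41.6 in KOPN8: MOLM13 was low and THP1 the high line. HLA-DOB had 18.9 and 18.6 CPM in MOLM13 and 1.01 and 0.747 in THP1, against 0.397 and 0.511 in RS4-11 and 7.83 and 8.82 in KOPN8. Counts of HLA genes depend on how reads of copies and of alleles unlike the reference are assigned, so differences between single class II genes are uncertain.

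Surface genes of lymphoid precursors were a mixed list. Of 20 genes 15 were in the fit and 0 were called. All MLL-AF9 libraries lay below the rest for 9 and above for 1 (all genes: 16.5% and 18.0%). The median log2 change was -2.22 (-2.92 without THP1 to -1.01 without KOPN8). ITGA4, the integrin alpha 4, was the 1 random-block call, with 68 and 62 CPM in MOLM13 and 135 and 149 in THP1, against 375 and 368 in RS4-11 and 604 and 622 in KOPN8 (edgeR log2 -2.22 ± 0.55, random-block adjusted p = 0.0445). CD24, a sialoglycoprotein of B precursors, had 0.706 and 1.35 CPM in MOLM13 and 0.876 and 0.996 in THP1, against 89.4 and 83.3 in RS4-11 and 1527 and 1449 in KOPN8. IL7R, the interleukin 7 receptor of lymphoid precursors, had 2.26 and 3.07 CPM in MOLM13 and 10.3 and 1.56 in THP1, against 144 and 130.3 in RS4-11 and 77.7 and 76.5 in KOPN8 (log2 -4.62 ± 0.64, adjusted p = 0.118). MME, the common ALL antigen CD10, reached 459 and 480 CPM in KOPN8 and reached at most 0.187 CPM in the other 6 libraries, so it did not pass the filter. PROM1 (CD133) was the opposite, with 0.283 and 0.21 CPM in MOLM13 and 0.13 and 0.311 in THP1, against 444 and 461 in RS4-11 and 0.329 and 0.701 in KOPN8. KIT, the stem cell factor receptor, had 0.706 and 0.0421 CPM in MOLM13 and 9.89 and 15.3 in THP1, against 0 and 0 in RS4-11 and 0 and 0 in KOPN8, so its counts came mainly from THP1. FLT3, a cytokine receptor kinase of progenitors, overlapped, with 553 and 509.9 CPM in MOLM13 and 64.4 and 105 in THP1, against 228 and 259 in RS4-11 and 362 and 377 in KOPN8. CD34 reached at most 0.336 CPM in the compared lines. CD99 and CRLF2 had 0 counts in all 16 libraries and are not read as absent, as for CSF2RA.

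Genes of mature B and plasma cells summed to 304 to 684 CPM in MLL-AF9 libraries, against 578 to 854 CPM in the others. Of 16 genes 11 were in the fit, 0 were called, 3 had all MLL-AF9 libraries below the rest and 1 above (all genes: 16.5% and 18.0%), and the median log2 change was -1.29 (-3.17 without THP1 to -0.87 without KOPN8). BCL6, a repressor of germinal centre and pre-B cells, had 6.5 and 7.66 CPM in MOLM13 and 11.3 and 7.0 in THP1, against 138 and 139 in RS4-11 and 53.1 and 64 in KOPN8. PRDM1, the BLIMP1 repressor, was the 1 above, at 8.75 to 22.2 CPM in MOLM13 and THP1, against 0.822 to 1.36 CPM in RS4-11 and KOPN8. Among the compared lines MS4A1 (CD20) exceeded 1 CPM only in KOPN8, at 20.9 and 12.1 CPM, and TNFRSF13B, the TACI receptor, reached 208 and 181 CPM there. FCER2 (CD23) was high in MOLM13 only, with 94.1 and 82.6 CPM in MOLM13 and 4.77 and 2.96 in THP1, against 0.519 and 1.26 in RS4-11 and 3.03 and 3.63 in KOPN8.

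**Figure D4:**
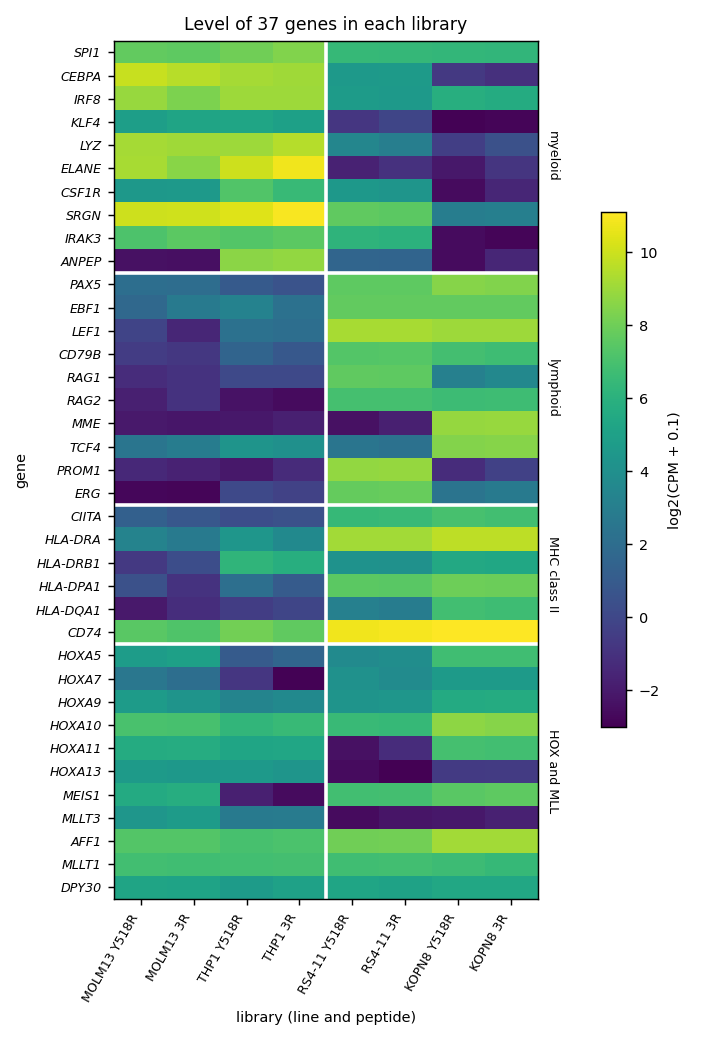
Heat map of log2(CPM + 0.1) for 37 genes (rows, in myeloid, lymphoid, MHC class II and HOX and MLL groups) in the 8 libraries (columns, MOLM13, THP1, RS4-11 and KOPN8). The myeloid block is mostly high in the 4 left columns (ANPEP in THP1 only) with partial levels in RS4-11 (CEBPA at 25.3 CPM). Most of the lymphoid and class II rows are high in the 4 right columns, with MME in KOPN8 only and PROM1 in RS4-11 only.

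HOX genes and other MLL fusion targets did not separate the groups as a list. All 26 genes were in the fit, 0 were called by edgeR, 3 had all MLL-AF9 libraries above the rest and 4 below (all genes: 18.0% and 16.5%), and the median log2 change was -0.67 (-0.97 without RS4-11 to 0.00 without KOPN8). HOXA9, the leading fusion target, had 26.7 and 19.1 CPM in MOLM13 and 10 and 12.8 in THP1, against 19.5 and 20.5 in RS4-11 and 49 and 49.6 in KOPN8. HOXA10 had 130.3 and 128 CPM in MOLM13 and 76.6 and 89.2 in THP1, against 93.2 and 85.7 in RS4-11 and 409 and 375 in KOPN8, so in both the KOPN8 libraries were the highest and the others overlapped. The 3′ genes HOXA3 to HOXA7 ran lowest in THP1: HOXA5, for example, had 27.2 and 31.8 CPM in MOLM13 and 1.91 and 2.93 in THP1, against 13.1 and 14.6 in RS4-11 and 109 and 109 in KOPN8. The 5′ end of the cluster behaved otherwise. HOXA13 had 25.6 and 22.7 CPM in MOLM13 and 24.2 and 20 in THP1, against 0.0611 and 0.0232 in RS4-11 and 0.559 and 0.577 in KOPN8. It was the 1 random-block call of the list (edgeR log2 6.29 ± 1.59, edgeR adjusted p = 0.227, random-block adjusted p = 0.046). HOXA11 had 50.6 and 52.2 CPM in MOLM13 and 38.2 and 39.5 in THP1, against 0.0916 and 0.325 in RS4-11 and 122 and 114 in KOPN8, with RS4-11 alone low. MEIS1, the DNA-binding partner of HOXA9, had 49.4 and 53.6 CPM in MOLM13 and 0.195 and 0.0622 in THP1, against 112 and 119 in RS4-11 and 180.1 and 191 in KOPN8, near background in THP1. LMO2, SENP6 and HOXA13 were the 3 genes with all MLL-AF9 libraries above the rest, and LMO2, a haematopoietic adaptor, ranged over 231 to 307 CPM in MOLM13 and THP1, against 44.9 to 133 CPM in RS4-11 and KOPN8. MEIS1, HOXA7, JMJD1C and MYB were the 4 below. MYC overlapped, at 120.0 to 722 CPM in MOLM13 and THP1, against 285 to 332 CPM in RS4-11 and KOPN8.

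Of 24 genes of the SET1/MLL complexes and the fusion partners, all were in the fit, 0 were called by either fit, 3 had all MLL-AF9 libraries above and 8 below (all genes: 18.0% and 16.5%), and the median log2 change was -0.23 (-0.41 to -0.03 as each line was left out). DPY30, the target of the Y518R peptide, had 36.4 and 35.7 CPM in MOLM13 and 26.5 and 33.1 in THP1, against 38.3 and 34.9 in RS4-11 and 44 and 43.9 in KOPN8, with overlapping groups. Its direct partner ASH2L had 151 and 122 CPM in MOLM13 and 189 and 199 in THP1, against 55.6 and 48.3 in RS4-11 and 104 and 96.7 in KOPN8, with all 4 MLL-AF9 libraries above. The fusion partners are counted with both their normal and their fused transcripts. MLLT3, the AF9 gene, had 21.1 and 26.5 CPM in MOLM13 and 6.91 and 7.1 in THP1, against 0.0611 and 0.116 in RS4-11 and 0.132 and 0.206 in KOPN8 (log2 6.94 ± 1.24, edgeR adjusted p = 0.166, random-block adjusted p = 0.119). MLLT3 was also counted in lines without the fusion, at 26.2 and 32.8 CPM in RAJI, 28.2 and 30.5 CPM in JURKAT and 108 and 123 CPM in P493-6, but at 0.264 and 0.473 CPM in K562. AFF1, the AF4 gene, had 159.8 and 156 CPM in MOLM13 and 124 and 136 in THP1, against 264 and 268 in RS4-11 and 559 and 569.5 in KOPN8 (log2 -1.49 ± 0.49, adjusted p = 0.301), so KOPN8, which has no AF4 fusion by its label, was the higher line. MLLT1, the ENL gene, overlapped at 110.0 to 115 CPM in MOLM13 and THP1, against 86.8 to 111 CPM in RS4-11 and KOPN8, and MLL itself had 45.3 and 60.3 CPM in MOLM13 and 104 and 78.6 in THP1, against 221 and 227 in RS4-11 and 148 and 147 in KOPN8.

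Cell cycle lists had medians below 0, of a size that depended on which MLL-AF9 line was left out. Of 26 S phase genes 0 were called by edgeR, 11 had all MLL-AF9 libraries below the rest and 0 above (all genes: 16.5% and 18.0%), and the median log2 change of -0.66 was -1.68 without THP1 and -0.23 without MOLM13. PCNA, the sliding clamp of replication, had 138 and 122 CPM in MOLM13 and 106 and 102 in THP1, against 327 and 329 in RS4-11 and 488 and 469.7 in KOPN8 (log2 -1.76 ± 0.37, random-block adjusted p = 0.0431). UHRF1, which maintains DNA methylation, had 72.2 and 65 CPM in MOLM13 and 118 and 111 in THP1, against 355 and 411 in RS4-11 and 533 and 444 in KOPN8 (log2 -2.24 ± 0.41, random-block adjusted p = 0.0416). MCM2, a helicase subunit, had 126 and 74.4 CPM in MOLM13 and 338 and 299 in THP1, against 389 and 397 in RS4-11 and 543 and 457 in KOPN8, with MOLM13 the low line. Of 22 G2/M genes 0 were called, 5 had all MLL-AF9 libraries below and 0 above, the 5 being near the 16.5% of all genes, and the median log2 change of -0.49 was 0.06 without MOLM13 and -1.27 without THP1. MKI67, the Ki-67 antigen, had 199 and 262 CPM in MOLM13 and 430.1 and 294 in THP1, against 661 and 584 in RS4-11 and 1025 and 1027 in KOPN8. CDC20, the mitotic activator, had 52.8 and 54 CPM in MOLM13 and 906 and 753 in THP1, against 79.6 and 70.1 in RS4-11 and 124 and 124 in KOPN8, high in THP1 alone.

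Interferon-response genes did not separate the groups either. Of 24 genes 23 were in the fit, 0 were called, 2 had all MLL-AF9 libraries above and 1 below (all genes: 18.0% and 16.5%), and the median log2 change of 0.81 became -1.17 without THP1 and 1.46 without MOLM13. In 12 of the 24, both THP1 libraries were at least 4-fold above both MOLM13 libraries (50%, against 6.07% of all genes tested). The 2 THP1 libraries also differed from each other, the Y518R library being the higher. MX1, an antiviral GTPase, had 0.753 and 0.337 CPM in MOLM13 and 372 and 86.5 in THP1, against 5.53 and 4.11 in RS4-11 and 13.3 and 14.8 in KOPN8. OAS3, a sensor of double-stranded RNA, had 1.27 and 1.39 CPM in MOLM13 and 323 and 87.4 in THP1, against 22.7 and 22.3 in RS4-11 and 94.5 and 94.1 in KOPN8. ISG20, an exonuclease, was the 1 gene with all MLL-AF9 libraries below, at 1.52 to 4.35 CPM in MOLM13 and THP1, against 16.1 to 20.2 CPM in RS4-11 and KOPN8.

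Markers of other blood cells were low with named exceptions. The 6 T cell markers summed to 0.714 to 1.05 CPM in MLL-AF9 libraries and 2.38 to 3.55 CPM in the others. In the wider list of 15 T cell genes 9 were in the fit, CD4 was the 1 called higher and 0 were called lower, with a median log2 change of 0.84 and a mean of -0.04, which differ in sign. The median was -0.60 without THP1 and 2.33 without KOPN8. LCK and ZAP70, T cell receptor kinases, were nevertheless counted in the B-precursor lines. LCK had 0.141 and 0.295 CPM in MOLM13 and 0.0973 and 0.373 in THP1, against 39.4 and 39.2 in RS4-11 and 122 and 109 in KOPN8 (log2 -8.35 ± 0.87, adjusted p = 0.0787). ZAP70 had 0.471 and 0.674 CPM in MOLM13 and 0.13 and 0.218 in THP1, against 168 and 175 in RS4-11 and 73.4 and 61.1 in KOPN8 (log2 -8.29 ± 1.06, adjusted p = 0.113). The CD3 chains CD3D, CD3E and CD3G reached at most 3.30 CPM in any of the 8 compared libraries. Erythroid and megakaryocyte markers summed to 1.33 to 1.71 CPM in MLL-AF9 libraries, against 0.412 to 25 CPM in the others, where the high values are ITGA2B in RS4-11 (23.1 and 24.2 CPM). Of 17 genes of that list 9 were in the fit and 0 were called (median log2 0.31, mean -0.34, of opposite sign; median -0.60 without MOLM13 and 1.95 without RS4-11). NK markers summed to 15.3 to 91.7 CPM in MLL-AF9 libraries, against 28.0 to 80.3 CPM in the others. KLRD1 had 0 counts in all 8 libraries, and the sums came from NCAM1 in MOLM13 (52.4 and 62.1 CPM) and from NKG7. Of 10 NK genes 5 were in the fit and 0 were called (median log2 -0.95, mean 0.60, again of opposite sign; median -2.43 without THP1 and -0.10 without RS4-11). The part of such genes in the results above was not tested.

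Genes outside the lists stood among the strongest of the random-block fit, and the 10 that follow were chosen after their values were seen. LYST, which regulates lysosome traffic, had 416 and 459 CPM in MOLM13 and 1015 and 949.7 in THP1, against 17.1 and 18.2 in RS4-11 and 14.5 and 11.9 in KOPN8 (log2 5.54 ± 0.61, random-block adjusted p = 0.0109). CITED2, a CBP-binding regulator, had 505 and 467 CPM in MOLM13 and 374 and 430.0 in THP1, against 35.7 and 35.4 in RS4-11 and 14.8 and 16.5 in KOPN8 (log2 4.15 ± 0.57, random-block adjusted p = 0.0146). GPR124, an adhesion receptor, DOK2, a docking protein of myeloid kinases, and LST1, a leukocyte transcript of the MHC region, were also higher (log2 7.70 ± 0.75, 3.96 ± 0.48 and 6.49 ± 1.01; random-block adjusted p = 0.0147, 0.0169 and 0.0169). On the lower side LRMP, a lymphoid-restricted membrane protein, had 95.7 and 109.6 CPM in MOLM13 and 84.3 and 101 in THP1, against 1596 and 1679 in RS4-11 and 917 and 963 in KOPN8 (log2 -3.69 ± 0.50, random-block adjusted p = 0.0109). CD59, an inhibitor of complement lysis, had 9.56 and 9.56 CPM in MOLM13 and 21.3 and 15.6 in THP1, against 228 and 237 in RS4-11 and 420.4 and 424 in KOPN8 (log2 -4.53 ± 0.58, random-block adjusted p = 0.0169). CYFIP2, a WAVE complex subunit, ERGIC1, a cargo protein of the early secretory pathway, and IFITM2, an antiviral membrane protein, were lower as well (log2 -4.92 ± 1.15, -3.35 ± 0.45 and -2.82 ± 0.37; random-block adjusted p = 0.0169, 0.0146 and 0.0169). None of the 10 was called by edgeR on line sums, where their adjusted p-values were 0.0703 to 0.214.

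The groups were not uniform inside. Of all 14660 genes tested, 9175 reached 10 CPM in both libraries for MOLM13 and 9180 for THP1. The same count was 9069 for RS4-11 and 8939 for KOPN8, so it differed little between lines. Of 95 genes of the myeloid transcription factor, receptor, signalling and granule lists, 69 reached 10 CPM in both libraries of MOLM13 and 69 in THP1, against 39 in RS4-11 and 26 in KOPN8. Of 45 genes of the B lineage factor and pre-B receptor lists, 20 did in MOLM13 and 18 in THP1, against 37 in RS4-11 and 40 in KOPN8. RS4-11 was at least 4-fold above KOPN8 for 6 of 18 myeloid factors, 9 of 35 monocyte receptors, 4 of 20 adaptors and kinases and 4 of 22 granule genes, while KOPN8 was above RS4-11 for 0, 2, 0 and 0 of them (all genes: 6.39% and 4.16%). SRGN, the granule proteoglycan serglycin, is an example, with 1034 and 1079 CPM in MOLM13 and 1366 and 1953 in THP1, against 197 and 188 in RS4-11 and 7.79 and 8.16 in KOPN8. HOX genes and fusion targets differed inside both groups. MOLM13 was at least 4-fold above THP1 for 6 of 26 and KOPN8 above RS4-11 for 9 of 26 (all genes: 4.13% and 4.16%). These are counts for 1 line against 1 line and carry no test.

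Pooling of the peptides was checked with a group-by-peptide term in edgeR, with the line as a block. Of 15419 genes 0 were called (lowest adjusted p = 0.344), and 415 had an unadjusted p under 0.05. DESeq2 on the same design called 3, BASP1, LSP1 and MFI2, and edgeR without the filter on low counts called LSP1, all named after their values were seen. LSP1, a lymphocyte-specific actin-binding protein, had 21.3 and 7.11 CPM in MOLM13 and 20.8 and 5.70 CPM in THP1, against 14.5 and 15.1 CPM in RS4-11 and 908 and 798 CPM in KOPN8. Its values in both MLL-AF9 lines were higher with Y518R than with 3R. Libraries of 1 line were less alike in MOLM13 and THP1 (Spearman correlation 0.990 and 0.987) than in RS4-11 and KOPN8 (0.996 and 0.994). With 1 library of each peptide per line, 0 calls do not show that the peptides acted alike in both groups.

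The 4 lines outside the comparison give levels that the calls did not use. Of the 9 genes called lower in the MLL-AF9 lines, 7 reached 10 CPM in both libraries of P493-6 and 6 in RAJI, both mature B lines, 4 in JURKAT, a T cell line, and 0 in K562, an erythroid line. The words mature B and erythroid come from general knowledge, not from the labels. IGLL1, for instance, had 30.2 and 39.6 CPM in JURKAT and stayed under 1 CPM in the other 3 lines, whereas CD79A had 554 and 551 CPM in RAJI and 432 and 406 CPM in P493-6. VPREB1 reached at most 2.33 CPM in these 4 lines. Of the 18 genes called higher, 6 reached that level in K562, 6 in JURKAT, 2 in RAJI and 5 in P493-6. For the random-block calls, 52.3% of the 111 lower genes reached 10 CPM in K562, 74.8% in JURKAT, 77.5% in RAJI and 84.7% in P493-6, and 43.5%, 46.1%, 31.3% and 42.6% of the 115 higher genes did. Of all genes tested, 58.7%, 61.4%, 57.7% and 61.2% did in the same order. These shares are descriptions with no test.

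**Figure D5:**
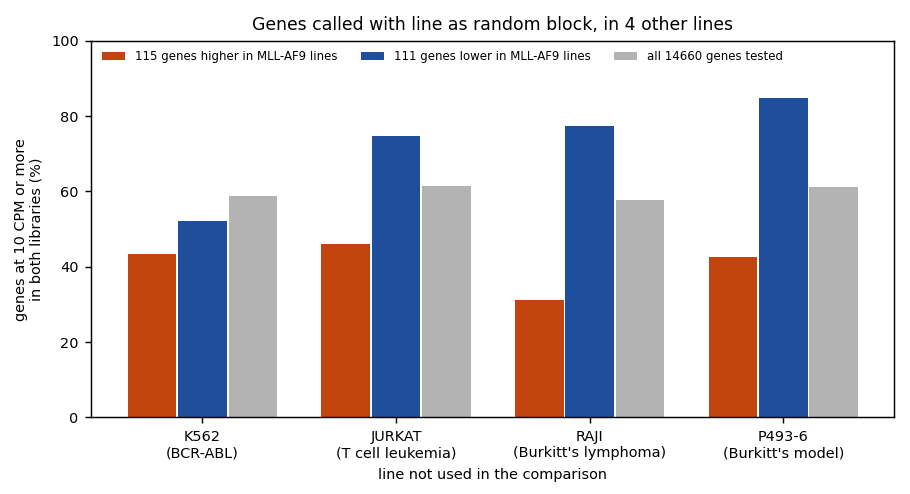
Percent of genes that reach 10 CPM in both libraries (vertical axis, 0 to 100) in K562, JURKAT, RAJI and P493-6, with bars for the 115 genes called higher and the 111 called lower in the MLL-AF9 lines by the random-block fit, and for all genes tested. The bars of the lower genes run from 52.3% in K562 to 84.7% in P493-6.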

How the data were processed

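RNA was poly(A)-selected, made into libraries with the NEBNext Ultra kit and sequenced, per the labels' protocols. The authors deposited a table of raw counts per gene symbol for each library. Tools listed in the submitters' processing notes are TopHat2 2.1.1, HTSeq 0.6.1 and CASAVA 1.8.4, along with DESeq2 3.0 and DESeq. The same notes list 2 builds, hg19 and GRCh38, and which of them the counting used is not stated, so the counts carry no coordinates here. Whether counting used strand is likewise not stated there. Between 17.7% and 25.2% of the entries of a library fell on no gene and 1.75% to 2.18% on several genes, and these entries were left out of the 23230 gene symbols.

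Counts of the 3R and Y518R libraries of each line were added, and MOLM13 and THP1 were compared with RS4-11 and KOPN8 by the quasi-likelihood test of edgeR 4.0.16 (R 4.3.3) with TMM scaling, filterByExpr at a minimum count of 10 and Benjamini-Hochberg adjustment over all genes tested. A standard error is the size of the log2 change over the root of the test's F value. Libraries of 1 line are not independent, so the line is the replicate. An edgeR p-value here sets the group difference against the spread between the different lines of a group. Nothing says that libraries came from separate cultures, and technical variation within that spread cannot be told apart from differences between lines. The second fit used limma-voom (limma 3.58.1) on 8 libraries, with peptide as covariate and line as a random block (consensus correlation 0.894). Its residual degrees of freedom still count libraries, so its p-values may be too small. With 2 lines against 2 an exact permutation test cannot go below a 2-sided p of 0.333, so sums and single levels carry no p. Counting intervals and floors (3 counts) cover counting error only. CPM was not divided by transcript length, so levels of different genes are not compared.

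The 22 lists (416 genes) and the members were chosen with earlier results of these data known, and no list was given a test of its own. Named genes were list members picked by lowest adjusted p in a direction, highest level or defining role, then the called genes outside the lists by size of change and by level, leaving out the Y chromosome. Alternatives were 2 scalings, 2 filters, DESeq2 1.42.0, limma-voom, single libraries, single peptides, a test against a log2 change of 1 and leaving out each line. Figures were drawn with Python 3.11.15 and matplotlib 3.10.9. Some list members are counted in their lists but are not reported here one by one.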

Additional observations from a re-analysis of the deposited data

Results flagged for a closer look

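Of 75 named genes in 2 groups of 4 libraries (150 groups), 3 held a library that stood apart from the other 3 by Dixon's 95% criterion, where chance flags about 1 in 20 groups. RNASE2 in the MLL-AF9 lines had 249 and 211 CPM in MOLM13 and 284 and 641 in THP1, Y518R before 3R, and the gap of the THP1 3R library to the nearest other library was 0.831 of the range. ONECUT2 in the MLL-AF9 lines had 69.4 and 71.3 CPM in MOLM13 and 36.1 and 68.9 in THP1, and the low THP1 Y518R library gave a gap of 0.932 of the range. CD79A in the MLL-AF9 lines had 1.46 and 1.05 CPM in MOLM13 and 1.10 and 1.09 in THP1, and the MOLM13 Y518R library gave a gap of 0.877 of the range, at a level far under that of RS4-11 and KOPN8.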

How the results depend on the processing

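All 27 called genes kept their direction under every setting run, but their number depended on the fit. RLE scaling called 19 higher and 10 lower, upper quartile scaling 17 and 7, and a minimum count of 50 gave 19 and 10, sharing 27, 24 and 27 genes with the 27. No filter on low counts called 60 higher and 41 lower, DESeq2 1057 and 667, and the 8 libraries as separate samples with peptide as the replicate block 1673 and 1125, all including the 27. The replicate block fit treats libraries of 1 line as independent, so its p-values are too small. The random-block fit called 115 and 111. The 3R libraries alone called 3 and 2, all among the 27. The Y518R libraries alone (1900 genes at an unadjusted p under 0.05), limma-voom on line sums (2157) and the test against a log2 change of 1 (1475) called 0 higher and 0 lower. Leaving out 1 line called 0 to 0 in both directions. With 1 line left on a side, that line is assumed to vary like the 2 lines of the other side. Each fit without a line also filtered genes anew. The list genes behind a leave-one-out median can therefore differ from those of the main fit. The group-by-peptide term called 0 genes by edgeR, 1 without the filter on low counts and 3 by DESeq2. The cause of these differences was not tested. At these depths genes near 3 counts give no stable fold change.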
